A study of Mus musculus with 6 samples.

Results

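Glycolysis, the pentose phosphate pathway and the citrate cycle form the core of carbon metabolism, and 53 genes of their enzymes and of the kinases that control them were listed for comparison between mouse cells of an epithelial and a mesenchymal kind. Of these 53 genes, 45 were measured on the arrays, by 51 probe sets, among 10261 measured genes in all. A gene counted as measured when a probe set of the deposited table was paired with its symbol and no other. Not measured here were Gpi1, Eno1, Pfkfb1, Pfkfb4, Pdk4, G6pdx, Sucla2 and Aco1. RNA came from untreated primary keratinocytes of newborn mice (postnatal day 0) on 3 arrays and from untreated mouse embryonic fibroblasts (MEFs) of E13.5 embryos on 3 others, numbered as biological replicates 1 to 3 in each group. The methods give C57BL/6J as the strain of MEFs, the protocol in the labels names DR-4 as the strain to dissect, and no strain is given for the keratinocytes. By that protocol MEFs are the trypsinised bodies of 10 to 15 embryos without head and inner organs, and thus a mixture of mesenchymal cells, while keratinocytes are freed from peeled skin with dispase. The methods describe a keratinocyte medium for one cell type and DMEM with serum for the other, at different CO2 levels, so that medium and gas are confounded with cell type and their effects cannot be told apart. All values are log2 signals as deposited, taken to be RMA output, and a difference is the mean of the keratinocyte-labelled arrays minus that of the MEF-labelled arrays.

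The labels were checked with Cdh1, which encodes E-cadherin of epithelial junctions, and Vim, which encodes the mesenchymal filament protein vimentin. Cdh1 stood at 3.33, 2.16 and 3.26 on the keratinocyte-labelled arrays and at 8.62, 8.59 and 8.73 on the MEF-labelled ones, whereas Vim stood at 11.93, 11.97 and 12.03 and at 3.81, 3.92 and 3.78. Both genes thus ran against the labels. Of 10 keratinocyte markers 10 were higher on the MEF-labelled arrays, and of 10 fibroblast markers 10 were higher on the keratinocyte-labelled ones. Every direction below therefore holds for the arrays as labelled, and the keratinocyte-labelled arrays are those with high Vim. Of the other cell types, skeletal muscle had 3 of 4 measured markers higher on the keratinocyte-labelled arrays (32.9% of all genes), and cartilage also 3 of 4. Of these cartilage genes, Col2a1 stood at 8.68 against 5.06 (adjusted p = 1.59e-08 from limma), above background on the 3 keratinocyte-labelled arrays only. Col9a1 and Acan were above background on no array, and Sox9 ran the other way, with 7.03 against 7.88. Of 2 macrophage markers 1 was higher in each direction, with Cd68 at 4.64 against 8.56. The 1 endothelial marker, Kdr, was higher on the MEF-labelled arrays, and 1 of 2 neural markers, Map2, on the keratinocyte-labelled ones. Both Kdr and Map2 were above background on no array. A gene was taken as above background on an array when it exceeded a limit set by 10 probe sets of olfactory receptors, their 95th percentile there. This limit lay between 5.49 and 5.92 on the keratinocyte-labelled arrays and between 6.05 and 6.58 on the MEF-labelled ones. It was thus stricter for the MEF-labelled arrays, where a signal can count as not above background at a level that passes on the others. Of the 45 members, 35 were above it on 6 arrays and 44 on at least 1. In such bulk RNA, fewer cells of a kind and less RNA per cell cannot be told apart.

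In glycolysis, glucose is phosphorylated, split into triose phosphates and turned into pyruvate, which is reduced to lactate or enters the mitochondrion. There the pyruvate dehydrogenase complex makes acetyl-CoA for the citrate cycle, while the pentose phosphate pathway draws on glucose 6-phosphate for NADPH and ribose. Many steps are served by several isozymes, each from its own gene, with tissue-dependent expression. Keratinocytes and cultured fibroblasts both use glucose as a main fuel.

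Across the 45 measured members, 11 were higher on the keratinocyte-labelled arrays and 26 on the MEF-labelled ones (limma, adjusted p under 0.05), and 8 did not pass. Among all measured genes, 32.9% were called in the first direction and 41.7% in the second, 74.5% in all. With each array centred on its median, the members' split became 15 and 20, so that 42.9% of calls instead of 29.7% were higher on the keratinocyte-labelled arrays. Over all genes this share of calls was 50.5% with centring and 44.1% without. The median difference was -0.30 over the members and -0.12 over all genes. Among the calls, log2 signal differences of at least 1, whatever the background, were found for 6 and 8 members, 31.1% of those measured. Of all genes, 28.4% met this rule (14.1% and 14.4% by direction). Of the 6, Eno2, Eno3, Pdk2 and Pcx were not above background on the MEF-labelled arrays. Of the 8, Aldoc and Rpia were not above it on the keratinocyte-labelled ones. The groups did not overlap for 41 members, 91.1%, against 78.4% of all genes. The distribution over the steps of the pathway was uneven. The 10 measured members of the citrate cycle, which do not include succinate dehydrogenase, lay on the side of the MEF-labelled arrays. The genes of phosphofructokinase, aldolase and the pyruvate dehydrogenase kinases lay on both sides. Of the succinate dehydrogenase genes, described below, Sdhb lay on the side of the keratinocyte-labelled arrays.

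**Figure D1:**
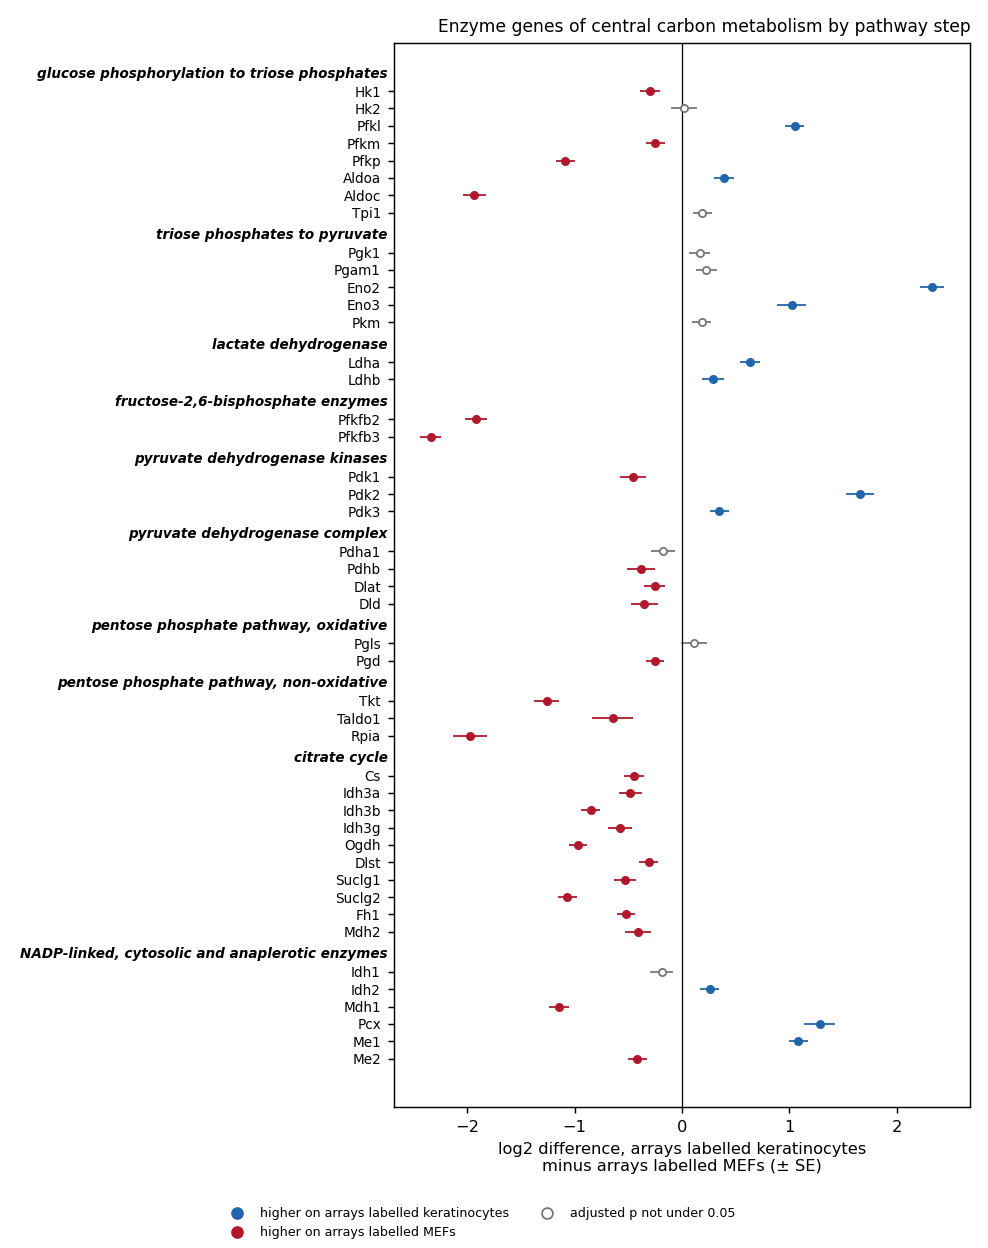
Log2 difference (horizontal axis, keratinocyte-labelled arrays minus MEF-labelled arrays, bars for the SE from limma) of the 45 measured members, grouped by pathway step, with filled points for genes past the threshold. The citrate cycle members, which do not include succinate dehydrogenase, all lie left of 0, from -1.07 for Suclg2 to -0.31 for Dlst. Genes of phosphofructokinase, aldolase and the pyruvate dehydrogenase kinases lie on both sides.

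Phosphofructokinase commits sugar to glycolysis, and its liver, muscle and platelet type subunits are encoded by Pfkl, Pfkm and Pfkp. Pfkl stood at 8.24, 8.29 and 8.34 on the keratinocyte-labelled arrays and at 7.18, 7.20 and 7.33 on the MEF-labelled ones. It was 2.07-fold higher on the former (difference 1.05 ± 0.09 SE, adjusted p = 1.23e-05 from limma). Pfkp ran the other way, with 7.01, 7.02 and 7.02 against 8.01, 8.12 and 8.20. It was 2.13-fold higher on the MEF-labelled arrays (difference -1.09 ± 0.09 SE, adjusted p = 9.71e-06 from limma), and in neither gene did the groups overlap. Pfkm was little changed, at 7.19 ± 0.07 (SD, n = 3) against 7.44 ± 0.06 (SD, n = 3). It passed (adjusted p = 0.0325 from limma) but did not with median centring (adjusted p = 0.164), nor without keratinocyte array 3 (adjusted p = 0.0917) or without MEF array 1, 2 or 3 (adjusted p = 0.0695, 0.0584 and 0.112).

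The kinases upstream are hexokinases, which trap glucose in the cell. Hk1 was 1.23-fold higher on the MEF-labelled arrays, with 11.65, 11.44 and 11.46 against 11.80, 11.85 and 11.78 (adjusted p = 0.0206 from limma). The groups did not overlap, but the call ended with median centring (adjusted p = 0.0836), without keratinocyte array 2 or 3, or without MEF array 2 or 3 (highest adjusted p = 0.0708 over these 4). Hk2, the inducible hexokinase, did not pass, with 7.00 ± 0.18 against 6.98 ± 0.13 (SD, n = 3 each).

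Aldolase splits fructose 1,6-bisphosphate, and its genes parted as well. Aldoa, the main aldolase of most tissues, was 1.31-fold higher on the keratinocyte-labelled arrays, with 10.87, 11.05 and 11.03 against 10.59, 10.58 and 10.60 (adjusted p = 0.00439 from limma). Aldoc, best known from the brain, stood at 4.71, 4.93 and 4.97 on the keratinocyte-labelled arrays, where it was not above background, and at 6.76, 6.74 and 6.92 on the MEF-labelled ones. The difference was at least 2.15-fold (adjusted p = 8.16e-07 from limma). This bound compares the bright group's mean with the dim group's background level, or with its own signal where that is higher.

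Of the genes from triose phosphate to pyruvate, Tpi1, Pgk1, Pgam1 and Pkm were above background on 6 arrays and differed little between the groups. Tpi1, which interconverts the triose phosphates, stood at 10.43 ± 0.08 against 10.24 ± 0.02 (SD, n = 3 each). The values of the kinase gene Pgk1 were 10.28 ± 0.13 and 10.12 ± 0.03, those of the mutase gene Pgam1 9.19 ± 0.12 and 8.96 ± 0.10, and those of Pkm, which encodes the muscle type pyruvate kinases, 10.34 ± 0.01 and 10.16 ± 0.09. In each of these 4 genes the 3 keratinocyte-labelled arrays lay above the other 3, as they did in 3593 of all 10261 genes. The means differed by at most 1.17-fold, and none of the 4 genes passed the test (adjusted p from 0.0699 for Pgam1 to 0.150 for Pgk1, limma). The 4 passed with median centring (adjusted p = 0.0150 for Tpi1, 0.0369 for Pgk1, 0.0201 for Pgam1 and 0.0256 for Pkm), and Tpi1 and Pgam1 also without keratinocyte array 1 (adjusted p = 0.0437 and 0.0326). The 2 probe sets of Pgk1 held identical values, as did 2 of the 3 of Pgam1, so they could not separate near-identical copies of these genes. Splice forms of Pkm were not resolved.

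The enolase genes Eno2 and Eno3, known from neurons and muscle, were both higher on the keratinocyte-labelled arrays. Eno2 stood at 5.16, 5.12 and 4.99 against 2.96, 2.69 and 2.63 (adjusted p = 4.04e-07 from limma) and was above background on no array, so no fold is given. Eno3 stood at 5.51, 5.52 and 5.60 against 4.37, 4.83 and 4.36 (adjusted p = 2.06e-04 from limma) and was above background on 1 keratinocyte-labelled array. Of the 4 measured skeletal muscle markers, Des, Acta1 and Tnnt3 were higher on the same arrays. Acta1 was above background on the 3 keratinocyte-labelled arrays, Des on 1 of them, and Tnnt3 and Ckm, the muscle creatine kinase gene, on no array. The log2 of the summed signal of the 4 lay between 7.51 and 8.11 on the keratinocyte-labelled arrays and between 6.17 and 6.34 on the MEF-labelled ones. Their part in the Eno3 difference was not tested.

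Lactate dehydrogenase reduces pyruvate at the end of the chain, with the muscle type subunit from Ldha and the heart type from Ldhb. Ldha stood at 11.14, 11.03 and 11.14 on the keratinocyte-labelled arrays and at 10.40, 10.44 and 10.59 on the MEF-labelled ones. It was 1.55-fold higher on the former (difference 0.63 ± 0.09 SE, adjusted p = 3.65e-04 from limma). Ldhb lay near background, with 5.79 ± 0.16 against 5.51 ± 0.02 (SD, n = 3 each, adjusted p = 0.0321 from limma). The Ldhb call ended without keratinocyte array 2 or 3 (adjusted p = 0.0836 and 0.0974), without MEF array 1, 2 or 3 (adjusted p = 0.0646, 0.0737 and 0.0908) and with the mean of its 2 probe sets (adjusted p = 0.0678).

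Fructose 2,6-bisphosphate is the strongest known activator of phosphofructokinase, and it is made and degraded by bifunctional enzymes. Pfkfb3, the isozyme with the highest kinase activity, had the largest difference of any member toward the MEF-labelled arrays. It stood at 6.22, 6.49 and 6.25 on the keratinocyte-labelled arrays and at 8.68, 8.67 and 8.64 on the MEF-labelled ones. It was 5.07-fold higher on the latter (difference -2.34 ± 0.10 SE, adjusted p = 1.83e-07 from limma). Pfkfb2, known from the heart, was 3.78-fold higher there, with 5.92, 5.87 and 5.65 against 7.68, 7.77 and 7.75 (difference -1.92 ± 0.10 SE, adjusted p = 6.31e-07 from limma). Both genes were above background on the 3 MEF-labelled arrays, and Pfkfb2 on 2 of the 3 keratinocyte-labelled ones.

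**Figure D2:**
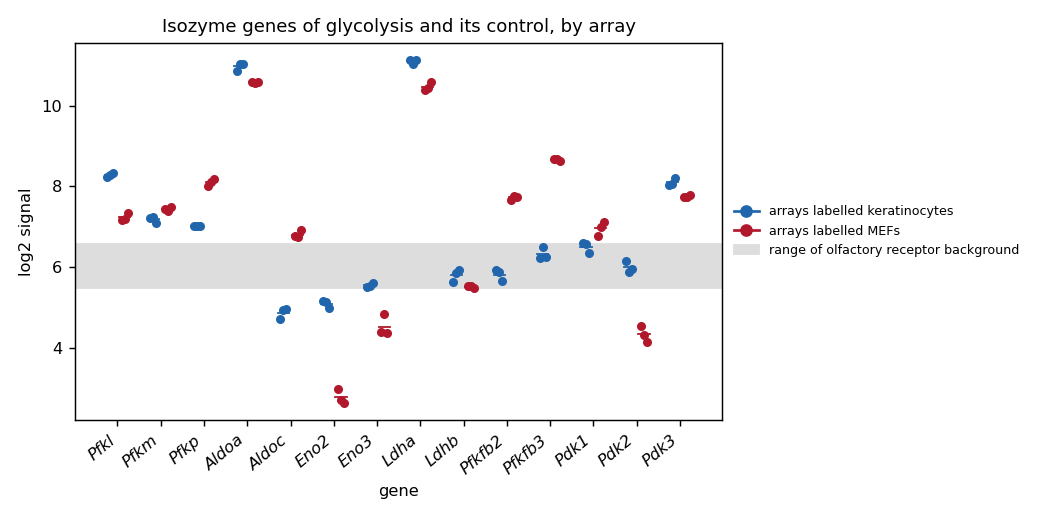
Log2 signal (vertical axis) of 14 isozyme genes on all 6 arrays (blue for keratinocyte-labelled, red for MEF-labelled; points are arrays, lines are group means). Grey shading spans the per-array background limits. Pfkl and Ldha are higher on the keratinocyte-labelled arrays, Pfkp, Aldoc, Pfkfb2 and Pfkfb3 on the MEF-labelled ones, and Eno2 lies below the shading in both groups.

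Many glycolytic genes are known targets of the hypoxia-inducible factor HIF, which binds a short core, ACGTG or GCGTG. The promoters of 4 members that differed in opposite directions are shown, Ldha and Pfkl from the keratinocyte-labelled arrays and Pfkp and Pfkfb3 from the MEF-labelled ones. Each is the 250 bases before a RefSeq start site in GRCm38.p6, 5′ to 3′ on the gene's strand, with matches to either core on both strands in capitals. For Ldha and Pfkfb3, which have several start sites, the one with the most matches is given.
Ldha (chr7:46845554-46845803, plus strand): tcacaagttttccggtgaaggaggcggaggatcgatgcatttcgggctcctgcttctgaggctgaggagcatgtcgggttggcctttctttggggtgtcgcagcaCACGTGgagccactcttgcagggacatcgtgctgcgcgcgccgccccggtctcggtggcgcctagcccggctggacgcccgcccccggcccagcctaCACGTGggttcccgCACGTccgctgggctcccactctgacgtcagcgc
Pfkl (chr10:78009808-78010057, minus strand): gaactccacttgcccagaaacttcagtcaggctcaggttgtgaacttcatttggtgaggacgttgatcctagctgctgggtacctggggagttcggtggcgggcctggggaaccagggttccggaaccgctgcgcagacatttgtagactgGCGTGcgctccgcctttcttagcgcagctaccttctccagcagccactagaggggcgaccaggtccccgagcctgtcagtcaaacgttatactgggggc
Pfkp (chr13:6648772-6649021, minus strand): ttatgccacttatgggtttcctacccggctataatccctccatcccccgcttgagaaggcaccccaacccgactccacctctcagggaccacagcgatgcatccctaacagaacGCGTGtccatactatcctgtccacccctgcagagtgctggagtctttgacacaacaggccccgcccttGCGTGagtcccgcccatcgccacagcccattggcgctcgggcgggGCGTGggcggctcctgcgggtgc
Pfkfb3 (chr2:11502091-11502340, minus strand): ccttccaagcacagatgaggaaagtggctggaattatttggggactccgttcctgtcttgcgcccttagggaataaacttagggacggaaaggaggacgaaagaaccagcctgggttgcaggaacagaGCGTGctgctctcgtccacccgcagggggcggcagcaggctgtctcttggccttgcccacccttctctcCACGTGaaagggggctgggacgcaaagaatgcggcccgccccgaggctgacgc
The Ldha window held 5 matches, all to ACGTG, of which 4 fall in 2 copies of the E-box CACGTG, since this palindrome holds ACGTG once on each strand. The Pfkl window held 1 match and the Pfkp window 3, all to GCGTG, and the Pfkfb3 window held 3, of which 2 lie in 1 E-box. Promoters were found for 43 measured members. A core stood in at least 1 window of 35 of them (81.4%) and of 41.5% of the 27025 genes with a RefSeq promoter, measured or not. Members had more windows per gene, with 66 for 43 genes against 32851 for 27025. By window the shares were 72.7% and 38.6%. The member windows were also richer in G and C, with a median of 60% against 52.4% over all windows. By direction, 10 of 11 members higher on the keratinocyte-labelled arrays and 18 of 24 higher on the MEF-labelled ones had a match. The E-box CACGTG was found for 16.3% of the 43 members and 6.86% of the 27025 genes. The antioxidant response element core, TGAC and GC with 3 free bases between (TGACNNNGC), was found for 9.30% and 11.5%. A match describes letters only, and no binding was measured.

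The other genes of glycolysis were divided too. Of 17 listed, 8 were measured, 5 higher on the keratinocyte-labelled arrays (32.9% of all genes) and 3 on the MEF-labelled ones (41.7% of all genes). Of the 5, Bpgm and Galm were above background on no array. Pgm1, a phosphoglucomutase that links glycogen to glycolysis, was higher on the keratinocyte-labelled arrays, with 7.81 ± 0.09 against 6.94 ± 0.06 (SD, n = 3 each, adjusted p = 4.50e-05 from limma). Adpgk, an ADP-dependent glucokinase, ran the same way, with 7.69 ± 0.04 against 6.90 ± 0.09 (adjusted p = 7.87e-05 from limma). Tigar, a phosphatase that degrades fructose 2,6-bisphosphate, was higher on the MEF-labelled arrays, with 5.90 ± 0.10 against 7.03 ± 0.13 (adjusted p = 1.97e-05 from limma). There it accompanied Pfkfb2 and Pfkfb3. Pgam5, a mitochondrial phosphatase related to the mutases, stood at 6.41 ± 0.12 against 6.95 ± 0.03 (adjusted p = 8.76e-04 from limma). Ldhd, for the D-lactate dehydrogenase, stood at 3.52 ± 0.13 against 5.34 ± 0.04 (adjusted p = 6.76e-07 from limma) but was above background on no array.

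Of 10 listed genes for glucose, lactate and pyruvate transport, 6 were measured, 3 were higher on the keratinocyte-labelled arrays (32.9% of all genes) and 1 on the MEF-labelled ones (41.7% of all genes). Slc16a3, the lactate exporter MCT4, stood at 8.22, 8.52 and 8.49 on the keratinocyte-labelled arrays and at 4.67, 3.99 and 4.21, not above background, on the MEF-labelled ones. The difference was at least 4.06-fold (adjusted p = 1.80e-07 from limma). Slc16a1, the lactate and pyruvate carrier MCT1, ran the other way, with 7.61, 7.15 and 7.43 against 8.31, 8.28 and 8.40 (adjusted p = 2.04e-04 from limma). Their shared chaperone gene Bsg was 9.14 ± 0.12 against 8.81 ± 0.06 (SD, n = 3 each, adjusted p = 0.0136 from limma). The glucose transporter gene Slc2a3 stood at 5.12 ± 0.14 against 3.29 ± 0.23 (adjusted p = 5.02e-06 from limma), above background on no array. Slc2a1, the main glucose transporter of proliferating cells, stood at 9.35 ± 0.10 against 9.57 ± 0.08 and did not pass.

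Of 18 listed genes of the HIF pathway and of its targets outside glycolysis, 15 were measured. On the keratinocyte-labelled arrays 10 were higher, where 32.9% of all genes were, and on the MEF-labelled ones 3. Hif1a, the oxygen-regulated subunit, stood at 10.04, 9.91 and 9.92 against 9.22, 9.32 and 9.19 (adjusted p = 1.37e-04 from limma). P4ha1 was at least 10.0-fold higher on the keratinocyte-labelled arrays, with 9.71 ± 0.03 against 6.00 ± 0.11 (SD, n = 3 each, adjusted p = 1.01e-08 from limma), and P4ha2 stood at 8.14 ± 0.10 against 6.32 ± 0.23 (adjusted p = 4.11e-06 from limma). Both encode collagen prolyl hydroxylases. Of the collagen genes among the keratinocyte and fibroblast markers, Col1a1, Col1a2 and Col3a1 were higher on the same arrays and Col17a1 was lower. Any link to the P4ha1 and P4ha2 differences was not tested. Bnip3, a mitophagy receptor, was at least 3.42-fold higher there (adjusted p = 2.41e-08 from limma), and Adm, for the vessel peptide adrenomedullin, at least 2.45-fold (adjusted p = 4.87e-06 from limma). Against this direction went Egln3, an oxygen sensor that is itself a HIF target, with 5.71 ± 0.08 against 7.48 ± 0.05 (adjusted p = 4.69e-07 from limma). Hif1an, the asparagine hydroxylase that restrains HIF, stood at 6.06 ± 0.05 against 6.84 ± 0.02 (adjusted p = 5.06e-05 from limma) and Bnip3l at 8.98 ± 0.12 against 9.41 ± 0.01 (adjusted p = 3.37e-03 from limma). The members Pdk1 and Pfkfb3, also known as HIF targets, were higher on the MEF-labelled arrays, and Ldha on the keratinocyte-labelled ones.

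**Figure D3:**
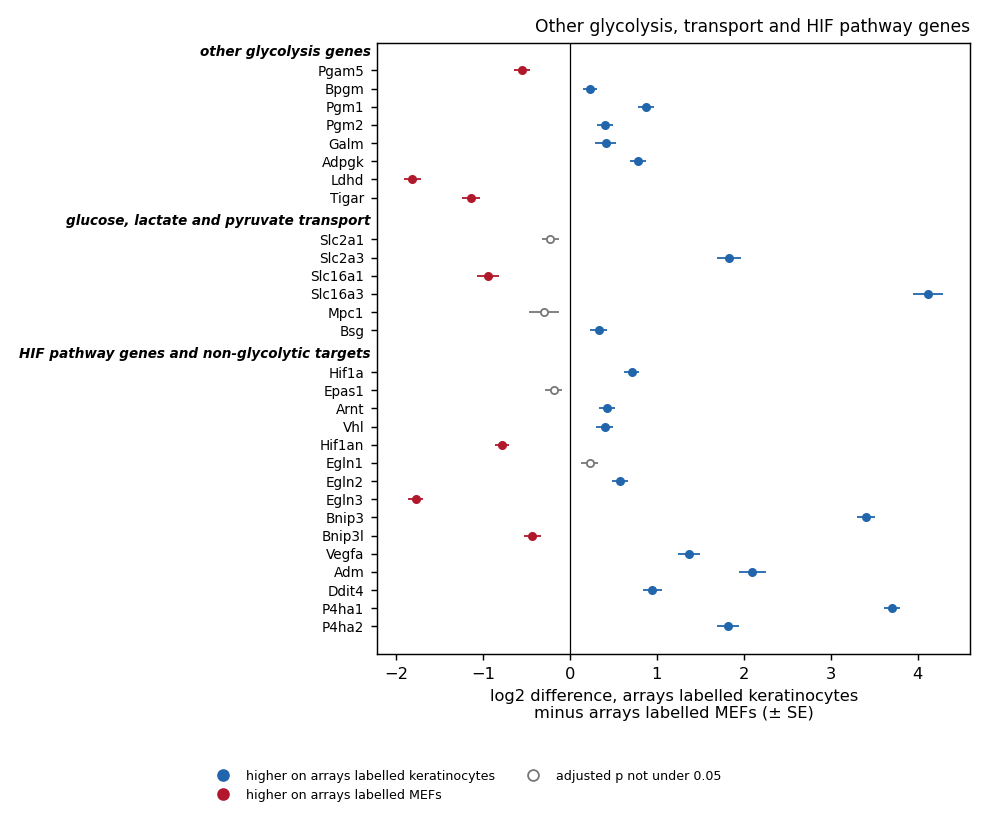
Log2 difference (horizontal axis, keratinocyte-labelled arrays minus MEF-labelled arrays, bars for the SE from limma) of the measured genes of the lists of other glycolysis genes, transport and the HIF pathway, with filled points for genes past the threshold. Slc16a3, P4ha1 and Bnip3 lie farthest to the right, and Ldhd and Egln3 farthest to the left.

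Pyruvate dehydrogenase kinases switch the pyruvate dehydrogenase complex off. Pdk2, the kinase found in most tissues, stood at 6.15, 5.88 and 5.94 on the keratinocyte-labelled arrays and at 4.54, 4.31 and 4.15, not above background, on the MEF-labelled ones (difference 1.66 ± 0.13 SE, adjusted p = 6.55e-06 from limma). It was above background on 2 arrays, and the bound came to less than 1, so no fold is given. Pdk3 was 1.27-fold higher on the keratinocyte-labelled arrays, with 8.04, 8.05 and 8.22 against 7.74, 7.75 and 7.78 (adjusted p = 8.26e-03 from limma). Pdk1 was 1.37-fold higher on the MEF-labelled arrays, with 6.61, 6.56 and 6.35 against 6.77, 7.00 and 7.12 (adjusted p = 8.88e-03 from limma).

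The complex itself, built from a pyruvate dehydrogenase (Pdha1 and Pdhb), an acetyltransferase (Dlat) and a dihydrolipoamide dehydrogenase (Dld), differed by small amounts. Pdhb, Dlat and Dld were higher on the MEF-labelled arrays by 1.30-fold, 1.19-fold and 1.28-fold (adjusted p = 0.0288, 0.0451 and 0.0321 from limma), and Pdha1 did not pass, with 9.59 ± 0.16 against 9.77 ± 0.10 (SD, n = 3 each). With median centring or quantile normalization 0 of the 4 passed (adjusted p with centring 0.0743 for Pdhb, 0.147 for Dlat and 0.0811 for Dld). The calls also ended for Pdhb and Dld without keratinocyte array 2 or without MEF array 1, 2 or 3 (highest adjusted p = 0.0831 and 0.104), and for Dlat without these or keratinocyte array 3 (highest adjusted p = 0.148). Of the phosphatases that switch the complex on, Pdp1 was higher on the keratinocyte-labelled arrays, with 6.91 ± 0.03 against 5.92 ± 0.15 (adjusted p = 3.83e-05 from limma), and their regulatory subunit gene Pdpr stood at 6.15 ± 0.17 against 5.85 ± 0.09. Pdp2, with 3.70 ± 0.24 against 5.71 ± 0.08, and Pdhx, the binding protein of the complex, with 4.99 ± 0.23 against 5.79 ± 0.10, were higher on the MEF-labelled arrays but above background on no array.

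In the sugar-exchanging branch of the pentose phosphate pathway, 3 of 3 genes were called higher on the MEF-labelled arrays (41.7% of all genes), but of these only Tkt was above background on 6 arrays. Tkt, which encodes transketolase, stood at 7.26, 7.54 and 7.55 on the keratinocyte-labelled arrays and at 8.79, 8.57 and 8.76 on the MEF-labelled ones, 2.39-fold higher on the latter (adjusted p = 2.06e-05 from limma). Rpia, the ribose 5-phosphate isomerase gene, stood at 3.78, 4.37 and 4.17 against 5.93, 6.13 and 6.19 (adjusted p = 8.18e-06 from limma). It was above background on 1 MEF-labelled array only, so no fold is given. Taldo1, for transaldolase, stood at 5.04, 5.71 and 5.71 against 6.19, 5.94 and 6.28 (adjusted p = 0.0143 from limma), near or below background throughout, and its call ended without MEF array 3 (adjusted p = 0.0510) and with the methods' t-test.

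Of the oxidative branch, which yields NADPH, Pgd (6-phosphogluconate dehydrogenase) was 1.19-fold higher on the MEF-labelled arrays, with 8.93, 9.03 and 9.01 against 9.19, 9.27 and 9.26 (adjusted p = 0.0251 from limma). The Pgd call ended with median centring (adjusted p = 0.115), without keratinocyte array 1 (adjusted p = 0.0508) and without MEF array 2 or 3 (adjusted p = 0.0847 and 0.0793). Pgls, the lactonase gene, did not pass, with 5.83 ± 0.10 against 5.73 ± 0.20 (SD, n = 3 each). Among 4 measured of 8 other genes of the pathway, those for the synthases that turn ribose 5-phosphate into the nucleotide precursor, Prps1 and Prps2, were higher on the MEF-labelled arrays. Prps2 stood at 6.58 ± 0.08 against 8.29 ± 0.03 (adjusted p = 5.45e-07 from limma) and Prps1 at 7.69 ± 0.12 against 8.82 ± 0.08 (adjusted p = 1.41e-05 from limma). The ribokinase gene Rbks, above background on no array, stood at 3.65 ± 0.22 against 4.59 ± 0.30 (adjusted p = 1.27e-03 from limma). Only H6pd among these 4 was higher on the keratinocyte-labelled arrays. It encodes the glucose 6-phosphate dehydrogenase of the endoplasmic reticulum, and its difference was at least 1.42-fold (adjusted p = 5.60e-06 from limma).

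The citrate cycle oxidises acetyl-CoA in the mitochondrial matrix. All 10 measured genes of its list were higher on the MEF-labelled arrays, where 41.7% of all genes were, and above background on 6 arrays. For each of the 10 the MEF-labelled arrays lay above the others without overlap, as for 4456 of all 10261 genes. The 10 passed in this direction with median centring and with quantile normalization as well. Their median difference was -0.53, with -0.43 after median centring, and over all genes it was -0.12 and -0.02. The cycle opens with Cs, for citrate synthase, which stood at 9.08, 9.19 and 9.27 against 9.62, 9.68 and 9.58, 1.36-fold higher on the MEF-labelled arrays (adjusted p = 2.18e-03 from limma).

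Isocitrate dehydrogenase of the cycle is a complex of 3 subunits, and they rose together on the MEF-labelled arrays, by 1.40-fold for Idh3a, 1.80-fold for Idh3b and 1.49-fold for Idh3g (adjusted p = 3.50e-03, 5.52e-05 and 1.82e-03 from limma). Idh3b stood at 9.10, 9.01 and 9.14 against 9.83, 9.96 and 10.01. Ogdh, the first enzyme of the oxoglutarate dehydrogenase complex, stood at 8.89, 8.77 and 8.81 against 9.77, 9.82 and 9.79, 1.96-fold higher (adjusted p = 1.49e-05 from limma). Its second enzyme, from Dlst, differed by 1.24-fold (adjusted p = 0.0125 from limma), a call that ended without MEF array 2 (adjusted p = 0.0527).

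Suclg2, for the GTP-forming subunit of succinate-CoA ligase, differed most within the cycle, with 6.95, 6.89 and 6.99 against 7.95, 8.11 and 7.97, 2.10-fold higher on the MEF-labelled arrays (adjusted p = 1.16e-05 from limma). A second probe set of Suclg2 gave -1.05. Suclg1, the partner subunit, was 1.44-fold higher and Fh1, for fumarase, 1.43-fold (adjusted p = 1.45e-03 and 5.95e-04 from limma). Mdh2, the mitochondrial malate dehydrogenase gene, was 1.33-fold higher, with 9.58, 9.93 and 9.99 against 10.25, 10.18 and 10.31 (adjusted p = 0.0155 from limma), and its call ended without MEF array 3 (adjusted p = 0.0545). Beyond the members, 9 of 12 listed genes of the cycle and its carriers were measured. On the MEF-labelled arrays 6 were higher, where 41.7% of all genes were, and on the keratinocyte-labelled ones 1, Sdhb, for the iron-sulphur subunit of succinate dehydrogenase, with 6.75 ± 0.09 against 6.06 ± 0.11 (SD, n = 3 each, adjusted p = 2.97e-04 from limma). Of the other subunit genes of succinate dehydrogenase, Sdhd was higher on the MEF-labelled arrays, with 7.45 ± 0.21 against 7.90 ± 0.12, and Sdha and Sdhc did not pass. Slc25a13 and Slc25a12, the mitochondrial aspartate and glutamate carriers, stood at 6.22 ± 0.10 against 8.12 ± 0.13 and at 7.48 ± 0.06 against 8.53 ± 0.06 (adjusted p = 7.94e-07 and 1.12e-05 from limma). The dicarboxylate carrier gene Slc25a10 stood at 6.38 ± 0.06 against 7.19 ± 0.11 (adjusted p = 9.56e-05 from limma).

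Around the cycle, enzymes that make NADPH or refill it were divided. Me1, the cytosolic malic enzyme that yields NADPH, stood at 9.41, 9.23 and 9.27 on the keratinocyte-labelled arrays and at 8.23, 8.25 and 8.19 on the MEF-labelled ones, 2.12-fold higher on the former (adjusted p = 1.07e-05 from limma). A second probe set of Me1 gave a difference of 1.17, beside 1.08 for the one shown. Me2, the mitochondrial malic enzyme, was 1.34-fold higher on the MEF-labelled arrays, with 7.03, 6.94 and 7.10 against 7.41, 7.51 and 7.41 (adjusted p = 3.04e-03 from limma). Mdh1, the cytosolic malate dehydrogenase gene, stood at 8.11, 7.95 and 8.15 against 9.17, 9.23 and 9.26, 2.21-fold higher on the MEF-labelled arrays (adjusted p = 9.28e-06 from limma). For these 3 genes the groups stood apart by far more than their spread.

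Pcx, for pyruvate carboxylase, which refills oxaloacetate, was higher on the keratinocyte-labelled arrays, with 5.89, 5.83 and 5.92 against 4.26, 4.74 and 4.80 (adjusted p = 7.75e-05 from limma). It was above background on 2 arrays, and the bound came to less than 1, so no fold is given. Idh2, the mitochondrial NADP-linked isocitrate dehydrogenase gene, was 1.20-fold higher on the keratinocyte-labelled arrays, with 8.44 ± 0.03 against 8.18 ± 0.06 (SD, n = 3 each, adjusted p = 0.0241 from limma). The Idh2 call ended without keratinocyte array 2 or 3 (adjusted p = 0.0575 and 0.0572) and without MEF array 2 or 3 (adjusted p = 0.0944 and 0.0628). Idh1, its cytosolic counterpart, did not pass, with 8.85 ± 0.14 against 9.03 ± 0.11, except without keratinocyte array 1 (adjusted p = 0.0460).

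**Figure D4:**
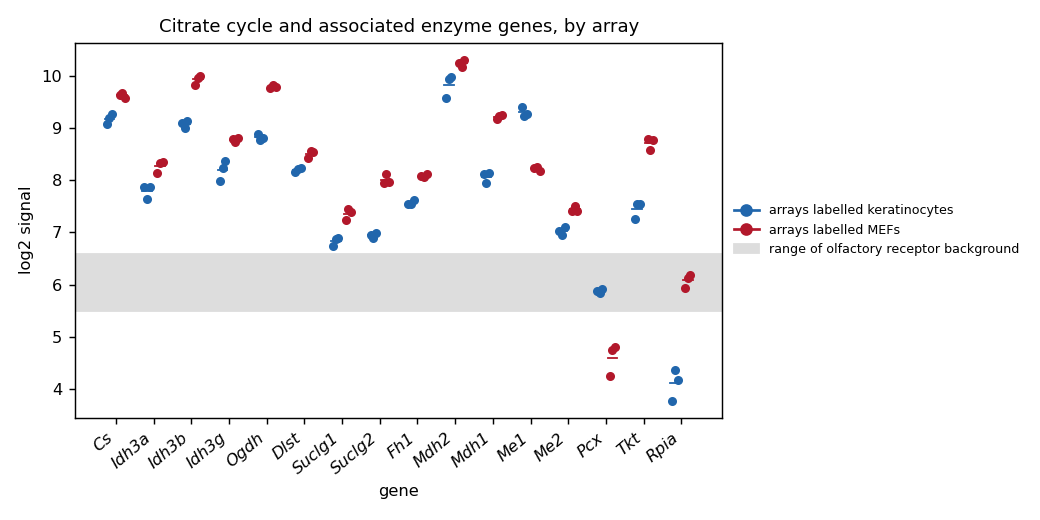
Log2 signal (vertical axis) of the citrate cycle genes from Cs to Mdh2 and of 6 genes of associated enzymes on all 6 arrays (blue for keratinocyte-labelled, red for MEF-labelled; points are arrays, lines are group means). Grey shading spans the per-array background limits. The red points lie above the blue for each cycle gene and for Mdh1, Me2, Tkt and Rpia, and below them for Me1 and Pcx.

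Whether isozyme genes changed unequally was asked with the log2 ratio of a pair on each array, compared between the groups. Such a ratio is free of array-wide scaling, but its level cannot be read, because the probe sets of different genes differ in response. Of 16 listed pairs, 11 were measured, and in 11 the groups did not overlap. Of single genes, 78.4% did not overlap, and the share for gene pairs in general was not computed, so nothing is read from this count. Each gave p = 0.1 (exact two-sided permutation test; adjusted over the 11 pairs, p = 0.1), which is the lowest value possible with 3 arrays in each group. For 6 pairs the ratio differed by at least 1 on the log2 scale.

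The largest shift was that of Aldoc against Aldoa, at -6.16, -6.11 and -6.06 on the keratinocyte-labelled arrays and -3.84, -3.84 and -3.68 on the MEF-labelled ones, a difference of -2.33 ± 0.06 (SE). Since Aldoc was not above background on the former arrays, this size depends on the background. Pfkp against Pfkl stood at -1.23, -1.27 and -1.31 and at 0.83, 0.92 and 0.87, a difference of -2.14 ± 0.03 (SE), with both genes above background on 6 arrays. Pfkm against Pfkl differed by -1.30 ± 0.07 (SE). Both ratios share Pfkl and restate the single-gene differences above, so their common direction is not separate evidence.

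For Pdk1 against Pdk2 the difference was -2.12 ± 0.23 (SE) and for Pdk3 against Pdk2 it was -1.31 ± 0.17 (SE), both open to the low signal of Pdk2. Me2 against Me1 stood at -2.38, -2.29 and -2.17 and at -0.82, -0.74 and -0.78, a difference of -1.50 ± 0.06 (SE). The mitochondrial and the cytosolic malic enzyme genes thus changed unequally. The pairs with differences under 1 were Mdh2 against Mdh1, 0.73 ± 0.16, Idh2 against Idh1, 0.45 ± 0.14, Pfkfb3 against Pfkfb2, -0.42 ± 0.11, Ldhb against Ldha, -0.34 ± 0.13, and Hk2 against Hk1, 0.32 ± 0.08 (SE). Ldhb was above background on 1 array, so the size of its ratio depends on the background too.

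**Figure D5:**
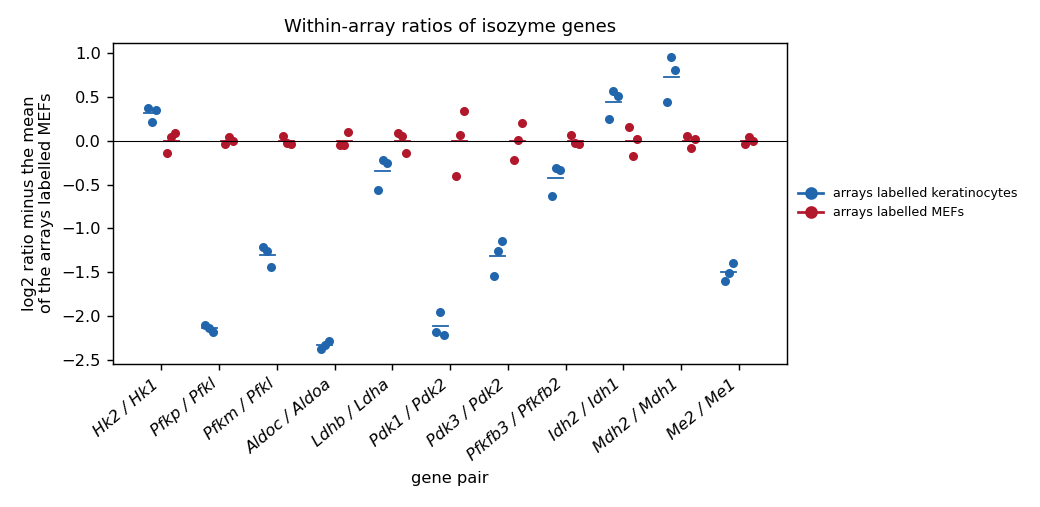
Within-array log2 ratio of 11 pairs of isozyme genes (vertical axis), less the mean of the MEF-labelled arrays, with blue for keratinocyte-labelled and red for MEF-labelled arrays (points are arrays, lines are group means). The blue group means lie more than 2 below the red for Aldoc against Aldoa, Pfkp against Pfkl and Pdk1 against Pdk2, and above the red for Hk2 against Hk1, Idh2 against Idh1 and Mdh2 against Mdh1.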

How the data were processed

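Total RNA of 3 keratinocyte and 3 MEF samples was hybridised to Affymetrix MoGene-1_0-st arrays. Log2 values were deposited for 15648 probe sets. Their methods name RMA by oligo (1.46.0 in the submitters' notes), and that these values are its output is inferred from their range. The array medians are not equal, at 6.16 to 6.31, and the lowest values lie below 0. RMA equalises array distributions and compresses dim signals. If the values are its output, a change in total RNA would be hidden and differences of dim genes would shrink. Probe sets took names from the platform annotation (11288 had 1 symbol; the 645 with several and the 3715 unlisted were not used). Current symbols came from RefSeq GRCm38.p6 by gene identifier, which matched 11274. The brightest probe set stood for its gene.

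All 11288 probe sets entered limma 3.58.1 (lmFit, eBayes; R 4.3.3), unfiltered and without a block, and a Benjamini-Hochberg adjusted p under 0.05 was called. On simulated data with few probe sets changed, the fit recovered 86% of log2 changes of 1 and 100% of those of 2. Of its calls there, 2.11% were false. In the real data 74.5% of genes were called, so these rates may not carry over. Promoter windows are those of RefSeq for GRCm38.p6. Plots used matplotlib 3.10.9. Precision is limited by the number of arrays, and each p-value measures spread between arrays labelled biological replicates.

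Every measured member is described. From each other list the text names up to 4 genes with the largest differences among those called without overlap, genes running against the list's majority, and a few more for their role, picked after their values were seen. Members and lists were chosen with earlier results of these data known. As alternatives, the tests were repeated with the replicate number as block, without each array, after centring arrays on medians or quantile normalization, with dim probe sets removed in 3 ways, with trended robust eBayes or weighted arrays, with the methods' t-test, on per-gene means, on the 15648 probe sets together, and with a log2 difference of 1 required.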

Additional observations from a re-analysis of the deposited data

How the results depend on the processing

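Of the 37 members called, 26 passed in the same direction under each of the 18 alternatives that tested them, the minimum difference apart: 9 higher on the keratinocyte-labelled arrays and 17 higher on the MEF-labelled ones. The other 11 calls, none with a difference of 1 or more on the log2 scale, ended under at least 1 alternative, and 0 members passed in the opposite direction. With a minimum log2 difference of 1, 6 members were higher on the keratinocyte-labelled arrays and 8 on the MEF-labelled ones, since most calls are small. With an array left out in turn, the counts ranged from 9 to 13 and from 18 to 26. With the replicate number as a block they were 9 and 21. Same-numbered arrays did not deviate together (correlations of deviations -0.19, -0.15 and -0.06 over probe sets), so the numbers were not taken as pairs. The methods' t-test gave 13 and 23 at an unadjusted p under 0.05 and 13 and 21 after Benjamini-Hochberg adjustment. For the isozyme ratios, median centring and the replicate block could not change a value. Nor could per-gene means where both genes had a single probe set. Of 110 ratio values under alternatives, these included, 109 stayed within 1 SD, so the count was partly fixed in advance. The exception was the Aldoc against Aldoa log2 ratio with quantile normalization, at -2.24, and the cause was not tested. Leaving out probe sets below the median removed 9 of the 45 members, and signals below background, such as those of Eno2, give no reliable size.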

Other observations

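Genes that tie the citrate cycle to amino acids differed in both directions. Of 13 listed genes of gluconeogenesis, transamination and glutamine entry, 8 were measured, 3 higher on the keratinocyte-labelled arrays and 4 on the MEF-labelled ones (limma, adjusted p under 0.05), where 32.9% and 41.7% of all genes were. Pck2, the mitochondrial phosphoenolpyruvate carboxykinase gene, stood at 8.33, 8.58 and 8.54 on the keratinocyte-labelled arrays and at 6.51, 6.53 and 6.74 on the MEF-labelled ones, 3.71-fold higher on the former (adjusted p = 1.13e-06 from limma). Gpt2, for mitochondrial alanine aminotransferase, stood at 7.57 ± 0.09 against 6.48 ± 0.01 (SD, n = 3 each, adjusted p = 9.25e-06 from limma) and G6pc3, a glucose 6-phosphatase gene, at 7.71 ± 0.16 against 6.87 ± 0.12 (adjusted p = 2.45e-04 from limma). Got2, for mitochondrial aspartate aminotransferase, ran the other way with Mdh1, Mdh2, Slc25a12 and Slc25a13, which share the malate-aspartate shuttle with it, at 9.04 ± 0.10 against 10.06 ± 0.05 (adjusted p = 1.80e-05 from limma). Got1, the cytosolic partner, did not pass, with 8.24 ± 0.09 against 8.44 ± 0.09. These shuttle genes were grouped after their values were seen. Gpt, above background on no array, stood at 3.02 ± 0.36 against 4.41 ± 0.07 (adjusted p = 1.15e-04 from limma).

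NRF2, encoded by Nfe2l2, is a known activator of pentose phosphate genes. Of 9 listed genes of NRF2 and its targets, 8 were measured, 4 higher on the MEF-labelled arrays (41.7% of all genes) and 1 on the keratinocyte-labelled ones (32.9%). The share of 4 in 8 is near that of all genes. Nfe2l2 stood at 8.09 ± 0.11 on the keratinocyte-labelled arrays and 8.88 ± 0.08 on the MEF-labelled ones (SD, n = 3 each, adjusted p = 1.35e-04 from limma), and its inhibitor gene Keap1 at 6.82 ± 0.08 and 7.65 ± 0.15 (adjusted p = 1.49e-04 from limma). Gclc, for the catalytic subunit of glutamate-cysteine ligase, stood at 6.24 ± 0.08 and 9.69 ± 0.03, 10.9-fold higher on the MEF-labelled arrays (adjusted p = 1.08e-08 from limma), while Gclm, its modifier subunit, did not pass, with 6.54 ± 0.17 and 6.57 ± 0.06. Hmox1, for haem oxygenase, was higher on the keratinocyte-labelled arrays, with 7.52 ± 0.31 and 6.34 ± 0.02 (adjusted p = 1.31e-04 from limma).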
